A study of Homo sapiens with 8 samples.

Results

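The effect of MEK inhibition alone was read in 4 of the 8 libraries of the series, chosen by their labels: 2 from 92.1 cells given vehicle (DMSO) and 2 from 92.1 cells given 10 nM trametinib, both for 24 h. 92.1 is an established human cell line from a uveal melanoma, a tumour of the pigment cells of the eye, and it is known to carry an activating mutation of GNAQ. Trametinib inhibits the kinases MEK1 and MEK2. The other 4 libraries came from 92.1 cells given 10 nM panobinostat, an inhibitor of histone deacetylases, or both drugs for 24 h. Their label for the combination gives the 10 nM dose once, so the dose of each drug in it is not stated. All groups are 1 cell line, and no source used here states that the 2 libraries of a group came from separate cultures, so a p-value here reflects only how far libraries of a group lay apart, and that spread may be technical.

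In uveal melanoma a constantly active G alpha q subunit signals through protein kinase C and the exchange factor RASGRP3 to RAS, and from there through the kinases RAF, MEK and ERK. Active ERK switches on transcription factors such as the ETV proteins and MYC, raises cyclin D1 and so drives cells from G1 into DNA replication, and at the same time induces its own inhibitors, the dual-specificity phosphatases and the Sprouty and SPRED proteins. In pigment cells the same pathway also acts on MITF, the factor that governs melanin synthesis.

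The values are normalised counts, that is, reads per gene divided by a size factor of the library. Recovered reads ran from 10342369 to 16861001 over the 4 libraries, and 1 read was worth between 0.602 and 1.00 normalised counts. Trametinib replicate 2 stood apart at low counts. It had 757 tested genes at 0 that were above 0 in replicate 1, against 62 in the other direction, and genes read 1 to 5 times made up 2.10% of its detected genes against 6.74% in replicate 1 and at least 12.8% in the vehicle libraries. For tested genes with a mean between 10 and 50 the trametinib libraries lay a median of 1.56 log2 units apart and the vehicle libraries 0.37, and at a mean of 5000 or more these gaps were 0.095 and 0.043. Both trametinib values are therefore given for most of the genes named. Melanocytic markers summed to between 103600 and 111500 normalised counts in vehicle and 167200 and 175100 with trametinib, with 7 of 8 markers tested and S100B at most 1.58. Of the other cell types looked for, CDH5 (endothelial), COL3A1 and THY1 (fibroblast) and RPE65 (retinal pigment epithelium) were at 0 in all 4 libraries, and the lists of the types other than melanocytic summed to at most 1095. Other markers of such types were present. With vehicle and with trametinib, COL1A1 (fibroblast) was at 133 and 149, and 512 and 821. LUM (fibroblast) was at 255 and 259, and 246 and 169. EMCN (endothelial) was at 486 and 444, and 137 and 212. CD68 (immune) was at 650 and 610, and 842 and 762. In bulk RNA, fewer cells of a state and less RNA per cell cannot be told apart.

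Trametinib changed the level of 6797 of 13320 tested genes, 51.0%, by limma on log2(normalised count + 1) at an adjusted p under 0.05. Of the tested genes, 3153 (23.7%) rose and 3644 (27.4%) fell, and the median over all tested genes was -0.07. The falls reached further than the rises: 212 genes fell and 45 rose by 4 log2 units or more, and 2022 (15.2%) fell and 1411 (10.6%) rose by at least 2-fold. As given above, 757 tested genes were at 0 in trametinib replicate 2 only and 62 in replicate 1 only. Such a 0 can lengthen a fall, as for BRMS1L, at -4.05 here and -2.08 by edgeR. How far these zeros account for the longer falls was not tested. All 6797 changed genes moved in the same direction in each trametinib library alone against the vehicle mean, and in all of them the groups did not overlap. Both follow closely from the call, so for a changed gene they add no support of their own. The groups did not overlap in 9920 genes, 74.5% of those tested, with trametinib higher in 35.3% and lower in 39.1%. A fit without 1 library of a group holds no spread within that group and takes it from the others. Calls and counts below from fits without 1 trametinib library therefore add no support of their own. At a mean between 10 and 50, 10.1% of genes rose and 11.5% fell, whereas 40.3% and 38.3% did so at 5000 or more, where the replicates lay closest.

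**Figure D1:**
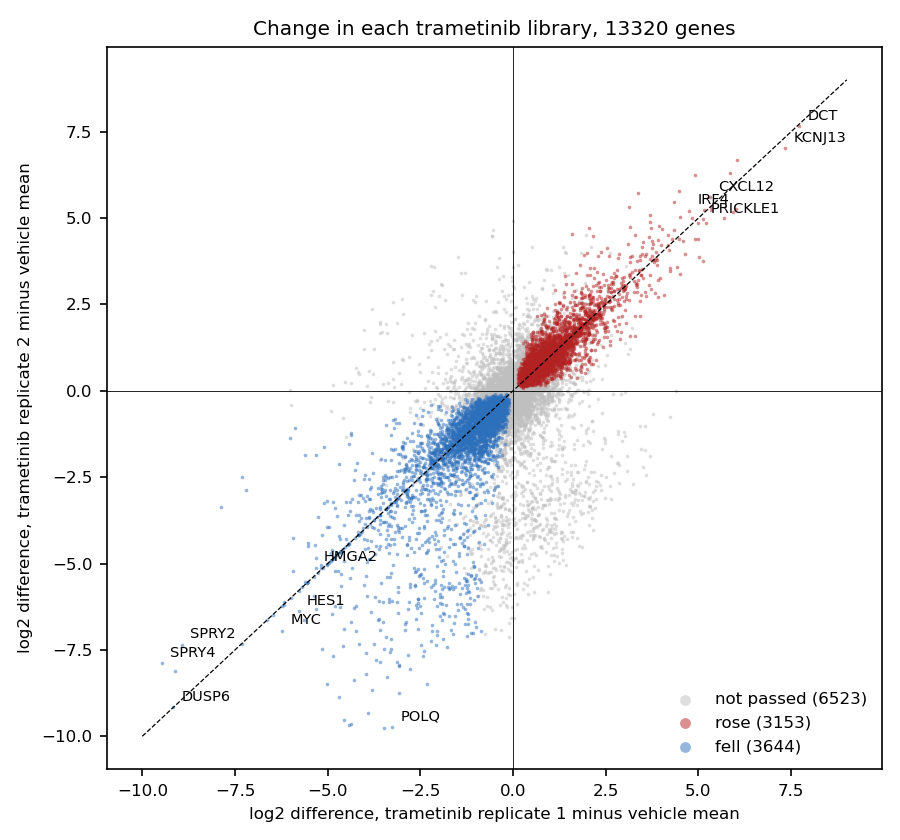
Change of each tested gene in trametinib replicate 1 (horizontal) and replicate 2 (vertical) against the vehicle mean, in log2 units, with genes that rose in red (3153), fell in blue (3644) or did not pass in grey, and the dashed line marking equal change. Every coloured gene lies on the same side of 0 in both libraries, and POLQ, labelled below the line, was at 0 in replicate 2 only.

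The genes of the kinases themselves moved in both directions. Of 20 tested genes of the RAF, MEK and ERK cascade, 7 rose (35%) and 5 fell (25%), beside 23.7% and 27.4% of all tested genes. The median log2 change of the list was 0.19. MAP2K1, which encodes MEK1, was at 219 and 257 with vehicle and 211 and 203 with trametinib, and its change of -0.20 ± 0.18 (limma adjusted p = 0.38) did not pass. MAPK3, which encodes ERK1, was at 432 and 429.9 with vehicle and 528 and 453 with trametinib. Its levels lay close together in the groups, and its change of 0.18 ± 0.13 (limma adjusted p = 0.257) did not pass. Upstream, the scaffold KSR1 was at 164 and 177 with vehicle and 452 and 437 with trametinib, a rise of 1.38 ± 0.15 (limma adjusted p = 5.73e-05). BRAF was at 433 and 473 with vehicle and 739 and 828 with trametinib and rose by 0.79 ± 0.13 (limma adjusted p = 0.000742). Its relative ARAF was at 642 and 619 with vehicle and 402 and 377 with trametinib, a change of -0.69 ± 0.12 (limma adjusted p = 0.00111). RASA1, which switches RAS off, rose by 0.89 ± 0.13 (limma adjusted p = 0.000339). The exchange factor SOS1 was at 8318 and 8192 with vehicle and 5633 and 5898 with trametinib, a fall. Its relative SOS2 was at 329 and 319.8 with vehicle and 607 and 533 with trametinib, a rise. The count of falls in this list was 3 without vehicle replicate 2. MAP2K2, which encodes MEK2, was at 2052 and 2428 with vehicle and 1396 and 1668 with trametinib, a change of -0.55 ± 0.13 (limma adjusted p = 0.00624), and did not pass without vehicle replicate 2 (adjusted p = 0.0659).

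The inhibitors that ERK induces against itself fell. Of 14 tested members, 9 fell (64.3%) and 2 rose (14.3%), beside 27.4% and 23.7% of all tested genes. The median was -2.53, or -2.11 in replicate 1 and -3.23 in replicate 2. DUSP6, the cytoplasmic phosphatase of ERK, was at 577 and 567 with vehicle and 0 and 0 with trametinib. Set at a floor of 3 reads per library, it is 190.0-fold lower with trametinib. That floor covers counting error only, and replicate 2 held 0 for genes such as POLQ, at 88.3 in replicate 1. The fold is therefore not a strict lower bound. SPRY4, a Sprouty protein, was at 2838 and 2849 with vehicle and 3.01 and 11.1 with trametinib, a change of -8.68 ± 0.44 (limma adjusted p = 4.09e-07). SPRY2 was at 515 and 466 with vehicle and 0 and 2.01 with trametinib, a change of -8.14 ± 0.54. No trametinib library held more than 11.1 normalised counts of DUSP6, SPRY4 or SPRY2. DUSP4, a nuclear phosphatase of ERK, kept a higher remainder at 6693 and 7080.1 with vehicle and 751 and 817 with trametinib, a change of -3.13 ± 0.087 (limma adjusted p = 2.11e-08). SPRED2 was at 1569.6 and 1641 with vehicle and 163 and 142 with trametinib, a change of -3.39 ± 0.16. SPRED1 was at 956 and 943 with vehicle and 203 and 94.4 with trametinib, a change of -2.77 ± 0.30. For SPRED1 replicate 2 was the lower library. DUSP7 was at 565 and 581 with vehicle and 143 and 126 with trametinib, a change of -2.09 ± 0.18. DUSP10 and DUSP16, phosphatases that act mainly on the stress kinases JNK and p38, went the other way. DUSP10 was at 45.7 and 33.3 with vehicle and 334 and 284 with trametinib, a rise of 2.95 ± 0.23 (limma adjusted p = 7.04e-06). DUSP16 was at 468 and 558 with vehicle and 1309 and 1413 with trametinib, a rise of 1.41 ± 0.11 (limma adjusted p = 6.67e-06).

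Among transcription factors known to answer to ERK, 15 of 21 fell (71.4%) and 2 rose (9.5%), beside 27.4% and 23.7% of all tested genes. The median was -1.75. MYC, a driver of growth and ribosome production, was at 4021 and 4133 with vehicle and 53.2 and 32.1 with trametinib, a change of -6.59 ± 0.30 (limma adjusted p = 2.32e-07). ETV4 was at 796 and 865 with vehicle and 16 and 17.1 with trametinib, a change of -5.56 ± 0.25 (limma adjusted p = 2.20e-07). ETV5 was at 2409.8 and 2257 with vehicle and 126 and 249 with trametinib, a change of -3.71 ± 0.25 (limma adjusted p = 2.41e-06). No trametinib library of these 3 genes came near a vehicle library. ETV1 was at 399 and 403 with vehicle and 60.2 and 33.2 with trametinib, a change of -3.14 ± 0.30. For these ETS factors the groups were far apart, and ETV5 was higher in replicate 2 than in replicate 1. EGR1, an immediate early factor, was at 525 and 556 with vehicle and 29.1 and 65.3 with trametinib, a change of -3.60 ± 0.36 (limma adjusted p = 3.31e-05). IER2 was at 441 and 395 with vehicle and 123 and 123 with trametinib, a change of -1.75 ± 0.18. IER5 was at 427 and 398 with vehicle and 49.1 and 25.1 with trametinib, a change of -3.51 ± 0.29. The members that rose were JUN and ATF3. JUN, an AP-1 subunit, was at 270.2 and 265 with vehicle and 1258 and 1523 with trametinib, a rise of 2.37 ± 0.11 (limma adjusted p = 2.73e-07). ATF3, a stress-induced factor, was at 65.6 and 76 with vehicle and 221 and 227 with trametinib, a rise of 1.65 ± 0.21 (limma adjusted p = 0.000151). JUND, another AP-1 subunit, was at 1186 and 1148 with vehicle and 794 and 683 with trametinib, a change of -0.66 ± 0.10. JUN, ATF3 and JUND thus differ in direction among AP-1 and related factors. FOSL1 was low at 47.5 and 53 with vehicle and 13 and 0 with trametinib, and its adjusted p was 0.0697 without vehicle replicate 1 and 0.0797 without vehicle replicate 2.

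**Figure D2:**
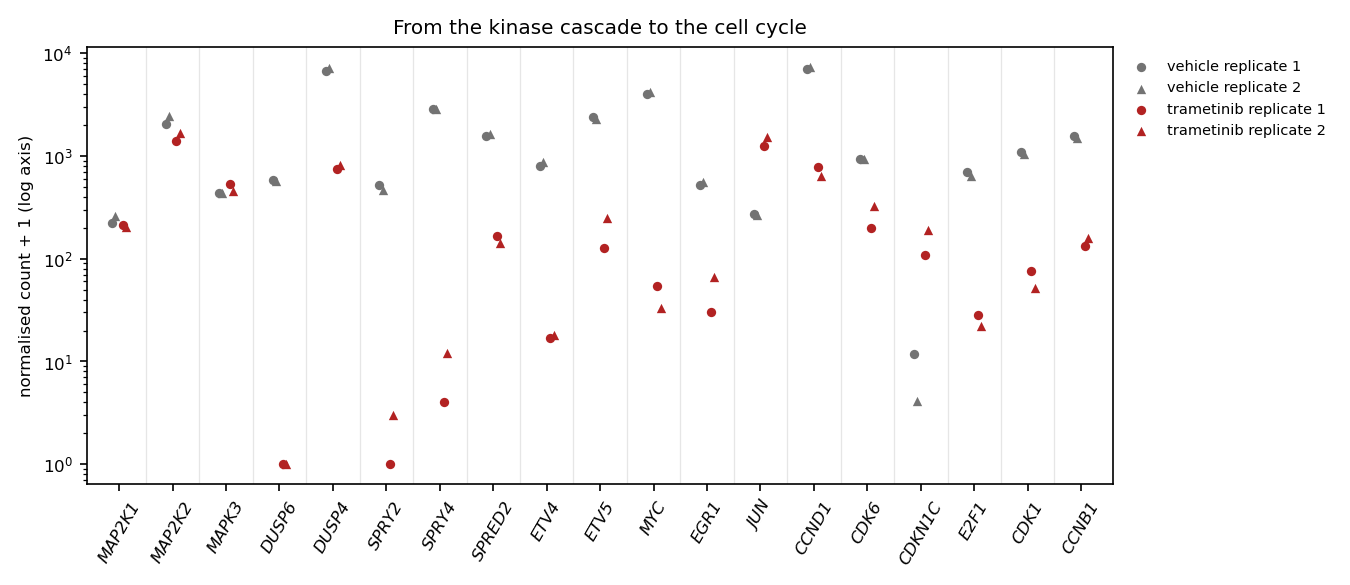
Normalised count + 1 on a log axis for 19 genes from the kinase cascade (left) to mitosis (right), with 1 point per library, vehicle in grey, trametinib in red, circles for replicate 1 and triangles for replicate 2. MAP2K1 and MAPK3 lie close together in both groups, while DUSP6 lies at 0 in both trametinib libraries and JUN and CDKN1C lie above vehicle.

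Among G1 cyclins, CDKs and their inhibitors, 8 of 18 fell (44.4%), 3 rose (16.7%) and 7 did not pass. Of all tested genes, 27.4% fell and 23.7% rose. CCND1, which encodes cyclin D1, was at 7030.2 and 7329.5 with vehicle and 785 and 632 with trametinib, a change of -3.35 ± 0.10 (limma adjusted p = 2.20e-08). CCND3 was at 1562 and 1705 with vehicle and 527 and 698 with trametinib, a change of -1.43 ± 0.13 (limma adjusted p = 1.67e-05). CDK6, a kinase partner of both cyclins, was at 926 and 922 with vehicle and 196 and 322 with trametinib, a change of -1.88 ± 0.23 (limma adjusted p = 0.000118). These 3 partners in the G1 kinase complexes all fell. CDK4, the other partner kinase, was at 1882 and 1651 with vehicle and 1576 and 1451 with trametinib and did not pass (limma adjusted p = 0.0833). Without trametinib replicate 1 its change was -0.28. CCND2 was not tested, with 0 in all 4 libraries. Of the inhibitors, CDKN1C, which encodes p57, went from 10.8 and 3.17 with vehicle to 107 and 189.9 with trametinib, a rise of 4.36 ± 0.53 (limma adjusted p = 0.00011). CDKN1B, which encodes p27, was at 443 and 456 with vehicle and 607 and 497 with trametinib and did not pass (limma adjusted p = 0.142). Without trametinib replicate 2 its change was 0.43. CDKN1A, which encodes p21, was at 2564 and 2601 with vehicle and 1855 and 2158 with trametinib, a change of -0.37 ± 0.075 (limma adjusted p = 0.00269). The pocket proteins moved apart. RBL1 was at 443 and 447 with vehicle and 133 and 134 with trametinib, a change of -1.73 ± 0.17. RBL2, which acts in resting cells, was at 379.8 and 363 with vehicle and 758 and 799 with trametinib, a rise of 1.06 ± 0.12. CDK2 was at 3521 and 3125 with vehicle and 7224 and 6599.6 with trametinib, a rise of 1.06 ± 0.076 (limma adjusted p = 3.62e-06). Neither pocket protein nor CDK2 had overlapping groups, and no changed gene did. CDC25A, the phosphatase that activates it, was at 611 and 626 with vehicle and 66.2 and 81.4 with trametinib, a change of -3.06 ± 0.36 (limma adjusted p = 8.69e-05). CDK2 lies next to PMEL in the genome, and whether reads of the pair were kept apart was not tested.

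The E2F factors, which switch on the genes of DNA replication, fell in 8 of 10 tested members (80%), with 1 rise (10%). The shares of all tested genes were 27.4% and 23.7%, and the median of the list was -2.42. E2F1 was at 698 and 637 with vehicle and 27.1 and 21.1 with trametinib, a change of -4.74 ± 0.28 (limma adjusted p = 1.17e-06). E2F7, a repressor that is itself induced in S phase, was at 632 and 644 with vehicle and 33.1 and 52.2 with trametinib, a change of -3.91 ± 0.26 (limma adjusted p = 2.37e-06). Replicate 2 was lower for E2F1 and higher for E2F7. E2F2 was at 383 and 333 with vehicle and 10.0 and 0 with trametinib. E2F8 was at 408 and 396 with vehicle and 28.1 and 0 with trametinib. Both were at 0 in replicate 2. E2F3 was at 1417 and 1346 with vehicle and 1368 and 1310.1 with trametinib, with overlapping groups, and did not pass (adjusted p = 0.713). TFDP1, a DNA-binding partner of the E2Fs, was at 1843 and 1883 with vehicle and 854 and 715 with trametinib, a change of -1.25 ± 0.11 (limma adjusted p = 1.19e-05). Its relative TFDP2 was at 518 and 504 with vehicle and 874 and 1081 with trametinib, a rise of 0.93 ± 0.12 (limma adjusted p = 0.000206). Promoter windows of 300 bases (250 before to 50 after a start site) from RefSeq, build GRCh38.p14, were searched on both strands for the E2F letters TTNGCGC. They were held by 5 of the 11 windows of this list, 45.5%, and by 7.81% of all 35116 windows. Other lists held them as often or nearly so, with 45.5% of the windows of the reference genes and 40% of those of mitochondrial biogenesis. The E2F1 window is shown because its own promoter holds the letters, in capitals, at -19 from the start site (chr20:33686336-33686635, minus strand).
E2F1: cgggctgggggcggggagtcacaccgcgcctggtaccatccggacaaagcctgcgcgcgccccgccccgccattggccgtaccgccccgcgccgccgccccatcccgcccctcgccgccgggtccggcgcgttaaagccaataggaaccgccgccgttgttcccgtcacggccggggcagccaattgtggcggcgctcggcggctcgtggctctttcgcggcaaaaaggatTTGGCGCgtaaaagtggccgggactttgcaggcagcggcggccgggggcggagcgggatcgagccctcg

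All 16 tested mitotic kinases, cyclins and motors fell, beside 27.4% of all tested genes, with a median of -3.47. With 1 of the 4 libraries left out the median lay between -3.68 and -3.19. CDK1, the kinase that starts mitosis, was at 1097 and 1048 with vehicle and 74.2 and 51.2 with trametinib, a change of -4.10 ± 0.20 (limma adjusted p = 3.63e-07). Its cyclin CCNB1 was at 1558 and 1492 with vehicle and 132 and 159 with trametinib, a change of -3.39 ± 0.14 (limma adjusted p = 1.01e-07). PLK1 was at 1643 and 1696 with vehicle and 112 and 189.9 with trametinib. All of these lay below vehicle in both trametinib libraries. AURKB, the kinase of the chromosomal passenger complex, was at 392 and 401 with vehicle and 29.1 and 14.1 with trametinib. CENPF, a kinetochore protein, was at 2606 and 2287 with vehicle and 60.2 and 84.4 with trametinib, a change of -5.08 ± 0.16 (limma adjusted p = 3.48e-08). The spindle motor KIF11 was at 1079 and 1079.9 with vehicle and 42.1 and 26.1 with trametinib, a change of -4.98 ± 0.22 (limma adjusted p = 1.95e-07). TOP2A, which untangles chromosomes, was at 3044 and 2895 with vehicle and 90.3 and 192 with trametinib. FOXM1, the factor that drives many of these genes, was at 3739 and 3438 with vehicle and 812 and 749 with trametinib, a change of -2.20 ± 0.085 (limma adjusted p = 8.68e-08). The cell cycle homology letters TTTGAA, known from promoters of mitotic genes, were held by 9 of the 15 windows of this list, 60%, and by 15.2% of all windows. In a CDK1 window, chosen after the matches were seen, they stand 3 times, in capitals (chr10:60778228-60778527, plus strand), while the CCNB1 window held none.
CDK1: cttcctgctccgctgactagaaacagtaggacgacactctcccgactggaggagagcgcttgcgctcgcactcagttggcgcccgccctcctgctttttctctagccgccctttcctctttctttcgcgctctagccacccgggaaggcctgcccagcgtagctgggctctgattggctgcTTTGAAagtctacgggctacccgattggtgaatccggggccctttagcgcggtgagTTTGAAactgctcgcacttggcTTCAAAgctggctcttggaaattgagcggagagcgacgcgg

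Enzymes of nucleotide synthesis fell in 21 of 24 members (87.5%) and rose in 0, beside 27.4% and 23.7% of all tested genes. The median was -1.53. RRM2, the regulated subunit of ribonucleotide reductase, was at 2401 and 2681 with vehicle and 90.3 and 33.2 with trametinib, a change of -5.51 ± 0.36 (limma adjusted p = 2.08e-06). The larger subunit RRM1 was at 1218 and 1271 with vehicle and 212 and 272 with trametinib, a change of -2.37 ± 0.15 (limma adjusted p = 1.53e-06). TYMS, which makes thymidylate, was at 1063 and 1187 with vehicle and 107 and 51.2 with trametinib, a change of -3.90 ± 0.31. The trametinib libraries of these 3 genes all lay far below vehicle. The list also holds the purine and pyrimidine pathways, which serve RNA synthesis as well. PAICS was at 2690.3 and 2836 with vehicle and 639 and 628 with trametinib, a change of -2.12 ± 0.08. CAD was at 2464 and 2548 with vehicle and 1050.1 and 905 with trametinib, a change of -1.36 ± 0.10. IMPDH2 was at 1708 and 1852 with vehicle and 669 and 817 with trametinib, a change of -1.27 ± 0.12. Trametinib replicate 2 was the lower library for RRM2 and TYMS and the higher one for RRM1 and IMPDH2.

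DNA damage response and recombination genes fell in 19 of 22 members (86.4%) and rose in 0, beside 27.4% and 23.7% of all tested genes. The median was -2.26. EXO1, a nuclease of mismatch repair and end resection, was at 1433 and 1499 with vehicle and 19.1 and 20.1 with trametinib, a change of -6.16 ± 0.28 (limma adjusted p = 2.32e-07). BRCA2, which acts in homologous recombination, was at 1005 and 964 with vehicle and 81.2 and 43.2 with trametinib, a change of -4.03 ± 0.29 (limma adjusted p = 3.32e-06). BRCA1 was at 1267 and 1308 with vehicle and 225 and 206 with trametinib, a change of -2.58 ± 0.14 (limma adjusted p = 8.01e-07). Replicate 2 was the lower library for both BRCA genes. FANCD2 was at 294 and 263 with vehicle and 33.1 and 30.1 with trametinib. CHEK1, a checkpoint kinase, was at 402 and 373 with vehicle and 77.2 and 156 with trametinib, with replicate 2 the higher trametinib library. ATM, the kinase that signals double-strand breaks, was at 393 and 406 with vehicle and 367 and 439 with trametinib. There the groups overlapped and the change of 0.0069 ± 0.18 did not pass (limma adjusted p = 0.978). POLQ, a polymerase of end joining, was one of the changed genes in which the trametinib libraries lay farthest apart, at 826 and 881 with vehicle and 88.3 and 0 with trametinib.

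Genes of ribosomal RNA production fell. Of 12 tested subunits and factors of RNA polymerase I, which transcribes ribosomal RNA, 9 fell (75%) and 0 rose. The shares of all tested genes were 27.4% and 23.7%, and the median of the list was -0.92. POLR1B, its second largest subunit, was at 500.1 and 519 with vehicle and 149 and 161 with trametinib, a change of -1.71 ± 0.16 (limma adjusted p = 2.12e-05). POLR1A, the largest, was at 1260.3 and 1241 with vehicle and 815 and 734 with trametinib, a change of -0.69 ± 0.091 (limma adjusted p = 0.000188). RRN3, the factor through which growth signals reach the polymerase, was at 357 and 431 with vehicle and 189 and 156 with trametinib, a change of -1.19 ± 0.19 (limma adjusted p = 0.000654). The groups did not overlap for these 3 genes, as in every changed gene. UBTF, which shapes the ribosomal gene for transcription, was at 1684 and 1738 with vehicle and 1549.5 and 1351 with trametinib, a change of -0.24 ± 0.088 (limma adjusted p = 0.044). It did not pass in any fit that left out 1 of the 8 libraries other than trametinib replicate 1, with adjusted p from 0.0618 to 0.206. The ETS core CCGGAA was held by 11 of the 16 promoter windows of this list, 68.8%, against 17.2% of all windows, 54.2% of those of oxidative phosphorylation and 46.9% of those of the proteasome. In the ERK feedback list 2 of 18 windows held it, 11.1%. The AP-1 letters TGANTCA were held by 11.1% of the windows of that list and 7.71% of all windows. The window of DUSP6, the first gene of that list, held neither the ETS core nor the AP-1 letters. A POLR1B window, chosen after the matches were seen, shows it in capitals at -41, read on the other strand (chr2:112542215-112542514, plus strand).
POLR1B: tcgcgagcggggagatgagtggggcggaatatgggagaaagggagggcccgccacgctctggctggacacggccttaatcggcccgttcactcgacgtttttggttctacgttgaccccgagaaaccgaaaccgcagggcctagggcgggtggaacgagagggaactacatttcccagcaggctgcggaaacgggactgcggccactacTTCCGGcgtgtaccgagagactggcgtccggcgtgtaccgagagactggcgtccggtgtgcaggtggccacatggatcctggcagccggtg

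Translation initiation factors fell in 17 of 21 members (81.0%) and rose in 2 (9.5%), beside 27.4% and 23.7% of all tested genes. The median was -0.95. EIF4G1, the scaffold of the cap-binding complex, was at 12816 and 13585 with vehicle and 5677 and 5393 with trametinib, a change of -1.25 ± 0.054 (limma adjusted p = 1.53e-07). EIF4E, the cap-binding protein, was at 805 and 732 with vehicle and 325 and 494 with trametinib, a change of -0.94 ± 0.18. Its repressor EIF4EBP1 was at 1023 and 1111 with vehicle and 258 and 265 with trametinib, a change of -2.02 ± 0.11. Neither the cap-binding protein nor its repressor had overlapping groups, and no changed gene did. EIF1AX, a gene often mutated in uveal melanoma, was at 2528 and 2502 with vehicle and 831 and 954 with trametinib, a change of -1.50 ± 0.093 (limma adjusted p = 1.49e-06). The members that rose are both brakes on initiation. PDCD4, which blocks the helicase of the complex, was at 1168 and 1176 with vehicle and 3251 and 3228 with trametinib, a rise of 1.47 ± 0.074 (limma adjusted p = 3.99e-07). EIF4EBP2, a relative of EIF4EBP1, was at 4542 and 4801 with vehicle and 5827 and 6722 with trametinib, a rise of 0.42 ± 0.072 (limma adjusted p = 0.000918).

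Cytosolic aminoacyl-tRNA synthetases, which charge tRNAs with amino acids, fell in 14 of 20 members (70%), with 1 rise (5%). The shares of all tested genes were 27.4% and 23.7%, and the median of the list was -0.48. IARS was at 2258 and 2264 with vehicle and 858 and 637 with trametinib, a change of -1.61 ± 0.12. GARS was at 3653 and 3161 with vehicle and 1551 and 1225 with trametinib, a change of -1.30 ± 0.11. AARS was at 1388 and 1384 with vehicle and 1446 and 1374 with trametinib, with overlapping groups. Not all synthetases moved. SARS was at 923 and 928 with vehicle and 935 and 1072 with trametinib, and neither passed (adjusted p = 0.814 and 0.336 by limma). QARS was the riser, at 1233 and 1195 with vehicle and 1714 and 1849 with trametinib, a change of 0.55 ± 0.086.

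Amino acid transporters split, with 6 of 16 up (37.5%) and 7 down (43.75%), beside 23.7% and 27.4% of all tested genes. SLC7A5, the leucine carrier LAT1, was at 5706 and 5573 with vehicle and 17094 and 16709.5 with trametinib, a rise of 1.58 ± 0.052 (limma adjusted p = 3.64e-08). Its partner chain SLC3A2 was at 1971 and 1914 with vehicle and 3229 and 2838 with trametinib, a rise of 0.64 ± 0.075 (limma adjusted p = 9.26e-05). SLC7A8, the related carrier LAT2, was at 14134 and 14509 with vehicle and 21573 and 22935 with trametinib, a rise of 0.64 ± 0.049 (limma adjusted p = 5.72e-06). The glutamine carriers SLC1A5 and SLC38A1 fell. SLC1A5 was at 1812 and 1851 with vehicle and 162 and 239 with trametinib, a change of -3.21 ± 0.18 (limma adjusted p = 8.09e-07). SLC38A1 was at 4837 and 5006 with vehicle and 1331 and 1377 with trametinib, a change of -1.86 ± 0.059 (limma adjusted p = 3.34e-08). SLC38A2, a glutamine and alanine carrier induced by amino acid shortage, rose, at 1251 and 1188 with vehicle and 1729 and 1997 with trametinib. The glutamine carriers thus went in both directions. SLC7A1, an arginine carrier, was at 2619.8 and 2535 with vehicle and 866 and 684 with trametinib, a change of -1.74 ± 0.11 (limma adjusted p = 1.53e-06). The median of the list was -0.16, -0.49 without trametinib replicate 1, 0.40 without trametinib replicate 2 and 0.04 by edgeR, so its sign differs between settings.

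Factors of mitochondrial biogenesis fell in 11 of 14 members (78.6%) and rose in 0, beside 27.4% and 23.7% of all tested genes. The median was -0.93. PPRC1, a coactivator of mitochondrial genes, was at 2525 and 2621 with vehicle and 881 and 994 with trametinib, a change of -1.46 ± 0.094. PPARGC1B, a relative of it, was at 1328 and 1376 with vehicle and 480.4 and 555 with trametinib, a change of -1.39 ± 0.12. TFAM, which packs and transcribes mitochondrial DNA, was at 656 and 589.8 with vehicle and 293 and 300.4 with trametinib, a change of -1.07 ± 0.15 (limma adjusted p = 0.000238). In these 3 genes both trametinib libraries lay below vehicle. PPARGC1A, the coactivator known to be raised by MITF, was at 194 and 184 with vehicle and 309.9 and 196 with trametinib, a change of 0.38 ± 0.20 (limma adjusted p = 0.132) that did not pass. Replicate 1 was the higher library, and without replicate 2 the change was 0.71. Without vehicle replicate 2 the count of falls was 6.

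Of 32 tested oxidative phosphorylation genes, 14 fell (43.75%), 2 rose (6.25%) and 16 did not pass, with a median of -0.26. Of all tested genes, 27.4% fell and 23.7% rose. CYCS, which encodes cytochrome c, was at 3564 and 3901 with vehicle and 1432 and 1442 with trametinib, a change of -1.38 ± 0.081 (limma adjusted p = 1.05e-06). The ATP synthase subunit ATP5B was at 6152 and 5699 with vehicle and 3760.0 and 3919 with trametinib, a change of -0.63 ± 0.068 (limma adjusted p = 5.53e-05). NDUFS1 of complex I was at 581 and 662 with vehicle and 657 and 512 with trametinib, with overlapping groups (adjusted p = 0.589). The counts depend on single libraries: 8 fell without vehicle replicate 1 and 7 without vehicle replicate 2, 4 rose without trametinib replicate 1, 7 without trametinib replicate 2 and 1 without vehicle replicate 2. In the citric acid cycle 9 of 21 fell (42.9%) and 4 rose (19%), beside 27.4% and 23.7% of all tested genes. By edgeR, and with only the 4 libraries compared, 7 fell. FH was at 772 and 661 with vehicle and 264 and 244 with trametinib, a change of -1.49 ± 0.15 (limma adjusted p = 3.03e-05). OGDH was at 1420.4 and 1359 with vehicle and 3204 and 3521 with trametinib, a rise of 1.27 ± 0.081 (limma adjusted p = 1.72e-06). The kinases that shut pyruvate dehydrogenase moved apart. PDK4 was at 58.4 and 67.3 with vehicle and 0 and 0 with trametinib, 20.9-fold lower if set at the floor, which covers counting error only. PDK2 was at 359 and 364 with vehicle and 1081 and 816 with trametinib, a rise of 1.38 ± 0.13 (limma adjusted p = 2.78e-05).

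Pigment genes rose. Of 13 tested genes of melanin synthesis and the melanosome membrane, 11 rose (84.6%) and 1 fell (7.7%), beside 23.7% and 27.4% of all tested genes. The median was 0.81 in the fit, 0.75 in replicate 1 and 0.81 in replicate 2. DCT, the dopachrome tautomerase of melanin synthesis, was at 14.4 and 4.75 with vehicle and 1984 and 1912 with trametinib, a rise of 7.69 ± 0.48 (limma adjusted p = 1.60e-06). Both vehicle libraries were near 0, and the trametinib libraries were alike. TYR, the first enzyme of the pathway, was at 1588 and 1534 with vehicle and 2726 and 2972 with trametinib, a rise of 0.87 ± 0.081 (limma adjusted p = 2.05e-05). TYRP1, a further enzyme of the pathway, was at 52639 and 46045 with vehicle and 77991 and 80168 with trametinib, a rise of 0.68 ± 0.062. PMEL, the fibril protein of the melanosome, was at 37252 and 36220.1 with vehicle and 50705 and 53493 with trametinib, a rise of 0.50 ± 0.056. Both enzymes and the fibril protein were higher in each trametinib library than in either vehicle library. OCA2, a melanosomal chloride channel, was at 822 and 854 with vehicle and 2925 and 2891 with trametinib, a rise of 1.79 ± 0.073 (limma adjusted p = 1.12e-07). GPNMB, a membrane glycoprotein of melanosomes and lysosomes, was at 14109 and 14439.8 with vehicle and 43702 and 47762 with trametinib, a rise of 1.68 ± 0.056 (limma adjusted p = 4.22e-08). SLC24A5, a cation exchanger needed for dark pigment, was the member that fell, at 1692 and 1594 with vehicle and 856 and 789.7 with trametinib, a change of -1.0 ± 0.10 (limma adjusted p = 4.23e-05), and the falls in this list were 2 without trametinib replicate 2. MLANA, a melanosomal membrane protein, rose, at 5275 and 5464 with vehicle and 7829.9 and 8044 with trametinib. The other solute carrier SLC45A2 rose, at 1588 and 1691 with vehicle and 3087 and 2683 with trametinib. The E-box letters CATGTG, which MITF is known to bind, were held by 9 of the 21 windows of the list, 42.9%, and by 11.1% of all windows. The DCT window at chr13:94549357-94549656 held none. Another DCT window held them at -215 (on the other strand) and -134 and the TYR window at -104 and -12, both windows chosen after the matches were seen and the letters in capitals (chr13:94479633-94479932, minus strand, and chr11:89177625-89177924, plus strand).
DCT: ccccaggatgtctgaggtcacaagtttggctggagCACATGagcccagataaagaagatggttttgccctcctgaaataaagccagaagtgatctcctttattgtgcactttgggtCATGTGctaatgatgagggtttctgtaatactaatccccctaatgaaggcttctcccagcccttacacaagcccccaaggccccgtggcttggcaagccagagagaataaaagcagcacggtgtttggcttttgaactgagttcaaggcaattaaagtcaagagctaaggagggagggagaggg
TYR: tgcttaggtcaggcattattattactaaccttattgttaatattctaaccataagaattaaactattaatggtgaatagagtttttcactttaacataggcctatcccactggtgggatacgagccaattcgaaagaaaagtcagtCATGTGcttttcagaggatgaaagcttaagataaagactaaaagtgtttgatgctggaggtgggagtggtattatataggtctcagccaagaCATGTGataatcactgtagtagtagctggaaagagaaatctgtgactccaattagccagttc

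The factors that set the melanocyte lineage rose in 12 of 15 members (80%) and fell in 0, with a median of 0.87. Of all tested genes, 23.7% rose and 27.4% fell. MITF was at 4158 and 4070.1 with vehicle and 8362 and 8592 with trametinib, a rise of 1.04 ± 0.054 (limma adjusted p = 4.74e-07). SOX10, which activates MITF, was at 10554 and 10220.0 with vehicle and 17632 and 19962 with trametinib, a rise of 0.85 ± 0.062. PAX3, its partner, was at 1363 and 1325 with vehicle and 2345 and 2587 with trametinib, a rise of 0.87 ± 0.069. IRF4, a factor that acts with MITF on pigment genes, went from 22.3 and 21.4 to 612 and 846, a rise of 4.98 ± 0.35 (limma adjusted p = 3.42e-06). SOX9 was at 103 and 82.3 with vehicle and 767 and 758 with trametinib, a rise of 3.04 ± 0.19 (limma adjusted p = 1.55e-06). SNAI2, a neural crest factor, was at 3599 and 3714 with vehicle and 10786 and 10942 with trametinib, a rise of 1.57 ± 0.063 (limma adjusted p = 1.01e-07). TFAP2A was at 13687 and 13580.0 with vehicle and 36314 and 38816 with trametinib, a rise of 1.46 ± 0.054 (limma adjusted p = 6.42e-08). No vehicle library reached a trametinib library in any of these 7 factors, which held for all 3153 genes that rose. Without trametinib replicate 2, 1 member fell.

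Genes that build and move melanosomes rose in 10 of 20 members (50%) and fell in 0, beside 23.7% and 27.4% of all tested genes. The median was 0.53. The 3 proteins that tie melanosomes to actin all rose. RAB27A, the tether on the melanosome, was at 237 and 259.7 with vehicle and 1113 and 875 with trametinib, a rise of 1.99 ± 0.17 (limma adjusted p = 9.84e-06). MLPH, the linker, was at 657 and 690.4 with vehicle and 2352 and 2188 with trametinib, a rise of 1.75 ± 0.088 (limma adjusted p = 3.99e-07). MYO5A, the motor, was at 2849.8 and 2906 with vehicle and 8914 and 9101 with trametinib, a rise of 1.65 ± 0.058 (limma adjusted p = 5.09e-08). Each of the 3 was higher in both trametinib libraries. SYTL2, which docks melanosomes at the membrane, was at 193 and 179 with vehicle and 692 and 1229.7 with trametinib, a rise of 2.31 ± 0.23 (limma adjusted p = 3.03e-05), with replicate 2 above replicate 1. RAB38, which delivers enzymes to melanosomes, was at 3229 and 3114 with vehicle and 5172 and 5628 with trametinib, a rise of 0.77 ± 0.065. Without trametinib replicate 1, 4 members fell.

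BEST1, a chloride channel known from the retinal pigment epithelium, was at 169 and 173 with vehicle and 776 and 794 with trametinib, a rise of 2.19 ± 0.13 (limma adjusted p = 9.25e-07). KCNJ13, a potassium channel of the same epithelium, was at 0 and 2.38 with vehicle and 296 and 237 with trametinib, a rise of 7.18 ± 0.88 (limma adjusted p = 0.00012). RPE65, the defining enzyme of that epithelium, was at 0 in all 4 libraries, and RLBP1, another marker, was at 10.2 and 3.17 with vehicle and 0 and 0 with trametinib. The 6 markers of that tissue summed to between 192 and 199 with vehicle and 792 and 794 with trametinib, most of it BEST1, which was named as a marker and not by the rule for genes.

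**Figure D3:**
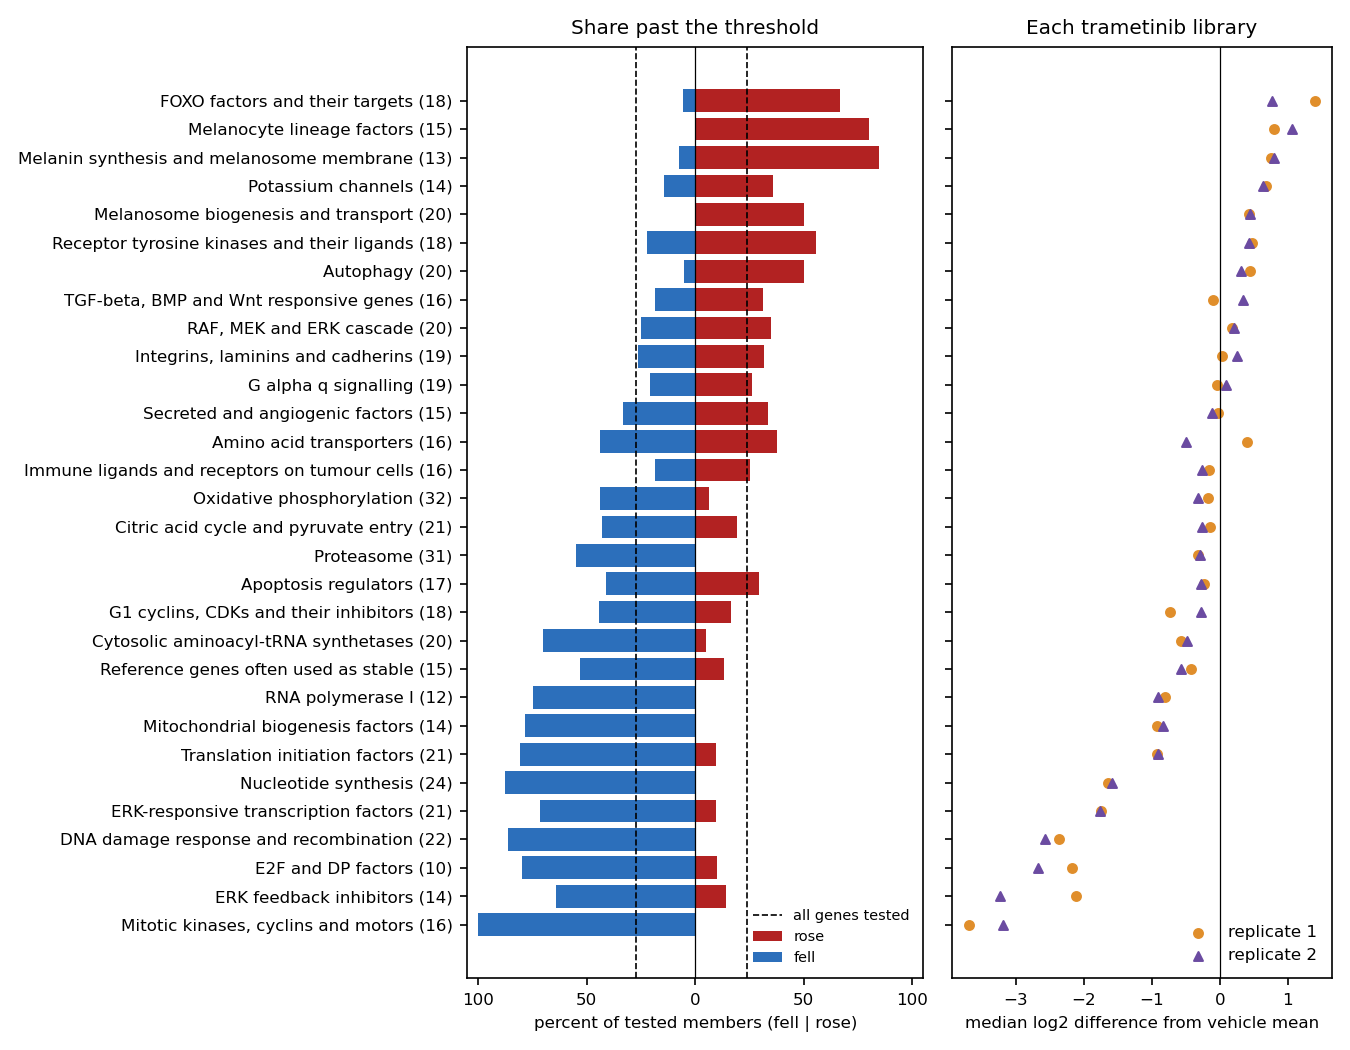
For each of 30 gene lists (number of tested members in parentheses), the left panel shows the percent of members that fell (blue, to the left) or rose (red, to the right) with dashed lines at the 27.4% and 23.7% of all tested genes, and the right panel shows the median log2 difference from vehicle in trametinib replicate 1 (circle) and replicate 2 (triangle). Lists of mitosis, E2F factors, DNA repair and ERK feedback lie far to the left in both libraries, and FOXO, lineage and melanin lists lie to the right in both.

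Receptor tyrosine kinases and their ligands rose in 10 of 18 tested members (55.6%) and fell in 4 (22.2%), beside 23.7% and 27.4% of all tested genes. ERBB3, a receptor for neuregulins, was at 351 and 339 with vehicle and 1343 and 1443 with trametinib, a rise of 2.01 ± 0.093 (limma adjusted p = 2.37e-07). NRG1, which encodes such a ligand, was at 376 and 363 with vehicle and 30.1 and 50.2 with trametinib, a change of -3.21 ± 0.25 (limma adjusted p = 5.31e-06). FGFR2 was at 53.6 and 52.3 with vehicle and 781 and 774 with trametinib, a rise of 3.85 ± 0.19 (limma adjusted p = 3.14e-07). The receptor ERBB3 and its ligand gene thus moved in opposite directions. FGFR1 was at 711 and 725 with vehicle and 1118 and 963 with trametinib, a rise of 0.53 ± 0.11. NTRK2, the receptor of a neurotrophin, was at 13.2 and 15 with vehicle and 209.6 and 199 with trametinib, a rise of 3.76 ± 0.76 (limma adjusted p = 0.00252). MET, the receptor of hepatocyte growth factor, was at 5559.9 and 5446 with vehicle and 9197 and 9695 with trametinib, a rise of 0.78 ± 0.062 (limma adjusted p = 6.94e-06). EPHA2 fell, at 338 and 329 with vehicle and 16 and 0 with trametinib. KITLG, the ligand of KIT, fell, was at 158 and 163 with vehicle and 11 and 0 with trametinib. Both were at 0 in replicate 2, and both also fell in the fit without it. EGFR, KIT and AXL were not tested. KIT was at 0 in all 4 libraries, EGFR was at most 0.602, and AXL was at 8.04 in trametinib replicate 2 and at 0 in the other 3.

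FOXO factors and genes they are known to activate when PI3K and AKT are quiet had a list median of 1.14. In this list 12 of 18 rose (66.7%) and 1 fell (5.6%), beside 23.7% and 27.4% of all tested genes. PIK3IP1, an inhibitor of PI3K, went from 7.82 and 13.5 to 357 and 238, a rise of 4.70 ± 0.39 (limma adjusted p = 9.59e-06). CCNG2, a cyclin of resting cells, was at 86.7 and 73.6 with vehicle and 335 and 408 with trametinib, a rise of 2.20 ± 0.20 (limma adjusted p = 1.57e-05). SESN3, a brake on mTORC1, was at 247 and 246 with vehicle and 768 and 877 with trametinib, a rise of 1.73 ± 0.10 (limma adjusted p = 8.70e-07). IRS2, an adaptor of the insulin receptor, was at 1908 and 2019.6 with vehicle and 5329 and 4828 with trametinib, a rise of 1.37 ± 0.065 (limma adjusted p = 2.92e-07). The groups did not overlap in any of these 4 genes, as in every changed gene. FOXO3 was at 366 and 379 with vehicle and 954 and 675 with trametinib, a rise of 1.11 ± 0.16. FOXO1 was at 412 and 472 with vehicle and 641 and 690.2 with trametinib, a rise of 0.59 ± 0.10. ERBB3 belongs to this list as well as to the receptors. TXNIP, another known target, was at 41.5 and 47.5 with vehicle and 49.1 and 29.1 with trametinib, with overlapping groups and no pass (adjusted p = 0.632). TRIB1, a pseudokinase, fell, at 1420.4 and 1410.0 with vehicle and 1027 and 871 with trametinib.

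The upstream G alpha q genes showed no common direction: 5 of 19 rose (26.3%), 4 fell (21.1%) and the median was 0.018. Of all tested genes, 23.7% rose and 27.4% fell. GNAQ was at 631 and 573 with vehicle and 559.6 and 932 with trametinib, with replicate 1 below and replicate 2 above both vehicle libraries (limma adjusted p = 0.295). Without trametinib replicate 1 its change was 0.63. GNA11 was at 675 and 715 with vehicle and 345 and 502 with trametinib, a change of -0.74 ± 0.17 (limma adjusted p = 0.00501). RASGRP3, which links G alpha q to RAS, was at 2552 and 2375 with vehicle and 3281 and 2646 with trametinib and did not pass (limma adjusted p = 0.0591). Without trametinib replicate 2 its change was 0.41, and it passed by edgeR (adjusted p = 0.0475) and DESeq2 (adjusted p = 0.00926). Of the protein kinases C, PRKCB was at 590.4 and 599 with vehicle and 1398 and 1550.2 with trametinib, a rise of 1.31 ± 0.10 (limma adjusted p = 4.53e-06). PRKCA was at 1209.7 and 1237 with vehicle and 903 and 874 with trametinib, a change of -0.46 ± 0.077 (limma adjusted p = 0.00081). Without trametinib replicate 1, 8 members rose.

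10 of 20 autophagy genes rose (50%) and 1 fell (5%), beside 23.7% and 27.4% of all tested genes, with a list median of 0.32. ATG14, a subunit of the lipid kinase that starts autophagosomes, was at 211 and 215 with vehicle and 819 and 679 with trametinib, a rise of 1.80 ± 0.14 (limma adjusted p = 5.40e-06). WIPI1, which binds that lipid, was at 234 and 217 with vehicle and 674 and 657 with trametinib, a rise of 1.56 ± 0.13 (limma adjusted p = 1.18e-05). ATG2A, a lipid transfer protein, was at 375 and 358 with vehicle and 1048 and 946 with trametinib, a rise of 1.44 ± 0.12 (limma adjusted p = 7.95e-06). Both trametinib libraries were higher in all 3. The cargo receptor NBR1 rose, at 548 and 571 with vehicle and 1183 and 1382 with trametinib. SQSTM1, another cargo receptor, rose, at 8734 and 9226 with vehicle and 10927 and 11931 with trametinib. GABARAP, which decorates the membrane, rose, at 1832 and 2013 with vehicle and 3602 and 4345 with trametinib. ATG3, the enzyme that lipidates GABARAP, fell, at 893 and 893 with vehicle and 526 and 219 with trametinib, and was not called with only the 4 libraries compared (limma adjusted p = 0.0525). The count of falls was 3 without trametinib replicate 1 and 2 without replicate 2. Proteasome subunits fell in 17 of 31 (54.8%) and rose in 0, beside 27.4% and 23.7% of all tested genes. The median was -0.33. PSMA2 was at 2395 and 2301 with vehicle and 1500.4 and 1191 with trametinib, a change of -0.81 ± 0.12. PSMC3 was at 1102 and 1149.5 with vehicle and 733 and 538 with trametinib, a change of -0.84 ± 0.14. In all, 5 subunits fell without vehicle replicate 1 and 9 without vehicle replicate 2.

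Of 17 apoptosis regulators, 5 rose (29.4%) and 7 fell (41.2%), beside 23.7% and 27.4% of all tested genes. Of the BH3-only genes, which promote cell death, BMF, BBC3 and BCL2L11 rose, and BID and PMAIP1 fell. BMF was at 214 and 207 with vehicle and 1712 and 1663 with trametinib, a rise of 3.00 ± 0.10 (limma adjusted p = 3.34e-08). BBC3, which encodes PUMA, was at 45.7 and 38.8 with vehicle and 123 and 187 with trametinib, a rise of 1.83 ± 0.35 (limma adjusted p = 0.002). BCL2L11, which encodes BIM, was at 66.2 and 99.8 with vehicle and 205 and 168 with trametinib, a rise of 1.18 ± 0.27 (limma adjusted p = 0.00519) that was not called without vehicle replicate 1 (adjusted p = 0.0553). In these 3 genes both trametinib libraries were the higher ones. BID was at 471 and 496 with vehicle and 156 and 179.8 with trametinib, a change of -1.52 ± 0.18 (limma adjusted p = 9.68e-05). PMAIP1, which encodes NOXA, was at 131 and 116 with vehicle and 29.1 and 0 with trametinib, a change of -4.50 ± 1.19 (limma adjusted p = 0.0109), with replicate 2 at 0. Its call was lost without vehicle replicate 1 (adjusted p = 0.0573), with only the 4 libraries compared (0.0879) and by DESeq2 (-3.09, adjusted p = 0.0664), and it was named after its values were seen. BAX, a pore former, was at 592 and 636 with vehicle and 354 and 352 with trametinib, a change of -0.80 ± 0.12 (limma adjusted p = 0.000434). The survival gene BCL2L1 was at 739.7 and 842 with vehicle and 1378 and 1550.2 with trametinib, a rise of 0.89 ± 0.11 (limma adjusted p = 0.000143). BIRC5, which encodes survivin and also serves in mitosis, was at 949.7 and 978 with vehicle and 128 and 171 with trametinib, a change of -2.69 ± 0.20 (limma adjusted p = 3.90e-06). Without vehicle replicate 1 the counts were 3 rises and 4 falls, and without vehicle replicate 2 there were 4 falls.

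Among immune ligands and receptors on tumour cells, 4 of 16 rose (25%) and 3 fell (18.75%), beside 23.7% and 27.4% of all tested genes. CD276, an inhibitory ligand also called B7-H3, was at 1076 and 1057 with vehicle and 1813 and 1829 with trametinib, a rise of 0.77 ± 0.074 (limma adjusted p = 2.31e-05). LGALS3, which encodes galectin-3, was at 535 and 538 with vehicle and 1033 and 1399 with trametinib, a rise of 1.16 ± 0.15 (limma adjusted p = 0.000179). ICAM1, an adhesion ligand of lymphocytes, was at 660.2 and 716 with vehicle and 189 and 242 with trametinib, a change of -1.68 ± 0.17 (limma adjusted p = 3.42e-05). Replicate 2 was the higher trametinib library for these 3 genes. PVR, a ligand of NK and T cell receptors, was at 799.9 and 838 with vehicle and 464 and 539.5 with trametinib, a change of -0.71 ± 0.12 (limma adjusted p = 0.000916). CD274, which encodes PD-L1, was not tested, with at most 3.01 in the 4 libraries. The falls numbered 8 without trametinib replicate 1 and 5 without replicate 2. Markers of immune cells summed to between 673 and 700 with vehicle and 763 and 920 with trametinib, and their part in these values was not tested.

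Secreted factors changed in both directions, 5 up and 5 down of 15 (33.3% each), beside 23.7% up and 27.4% down of all tested genes. CXCL12, a chemokine, went from 13.8 and 16.6 to 643 and 784, a rise of 5.46 ± 0.27 (limma adjusted p = 3.79e-07). SPP1, which encodes osteopontin, was at 439 and 409 with vehicle and 2322 and 2493 with trametinib, a rise of 2.50 ± 0.10 (limma adjusted p = 1.01e-07). SEMA3C, a guidance factor, was at 166 and 143 with vehicle and 588 and 393 with trametinib, a rise of 1.64 ± 0.18 (limma adjusted p = 5.09e-05). VWF, a gene usual in endothelium, was at 1.20 and 1.58 with vehicle and 144 and 85.4 with trametinib, a rise of 5.55 ± 0.92 (limma adjusted p = 0.000805). The endothelial markers CDH5, PECAM1 and KDR were at 0 in both trametinib libraries, and that marker list summed to between 446 and 487 with vehicle and 137 and 212 with trametinib. EMCN, of the same list, was at 486 and 444 with vehicle and 137 and 212 with trametinib. VEGFC was at 224 and 234 with vehicle and 18.1 and 0 with trametinib, a change of -5.72 ± 1.03. PDGFB was at 143 and 128 with vehicle and 39.1 and 62.3 with trametinib, a change of -1.44 ± 0.32. VEGFA was at 572 and 544 with vehicle and 261 and 64.3 with trametinib, a change of -2.10 ± 0.52 (limma adjusted p = 0.00789) in which replicate 2 lay far below replicate 1. It was not called with only the 4 libraries compared (limma adjusted p = 0.060). Falls numbered 3 without vehicle replicate 1 and 3 without vehicle replicate 2.

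In the TGF-beta, BMP and Wnt list 5 of 16 rose (31.25%) and 3 fell (18.75%), beside 23.7% and 27.4% of all tested genes. Those that fell are inhibitors of differentiation. ID1 was at 318 and 358 with vehicle and 27.1 and 24.1 with trametinib, a change of -3.67 ± 0.24 (limma adjusted p = 2.26e-06). ID4 was at 1098 and 1067 with vehicle and 304 and 151 with trametinib, a change of -2.33 ± 0.26 (limma adjusted p = 6.29e-05). ID3 was at 942 and 1018 with vehicle and 363 and 542 with trametinib, a change of -1.14 ± 0.17 (limma adjusted p = 0.00047). Replicate 2 was lower for ID1 and ID4 and higher for ID3. Their relative ID2 was at 1930.1 and 2031 with vehicle and 2561 and 2739 with trametinib, a rise of 0.42 ± 0.069 (limma adjusted p = 0.000737). Without trametinib replicate 1 the list had 9 rises and 5 falls.

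Integrins, laminins and cadherins were mixed as well, with 6 up (31.6%) and 5 down (26.3%) of 19, beside 23.7% and 27.4% of all tested genes. LAMB2, a basement membrane laminin, was at 1438 and 1548 with vehicle and 4509 and 3852 with trametinib, a rise of 1.48 ± 0.083 (limma adjusted p = 8.08e-07). LAMC1, a chain it pairs with, was at 2437 and 2304 with vehicle and 1399 and 1521 with trametinib, a change of -0.70 ± 0.076 (limma adjusted p = 5.39e-05). CDH3, the P-cadherin of pigmented cells, was at 148 and 132 with vehicle and 432 and 585 with trametinib, a rise of 1.84 ± 0.21 (limma adjusted p = 7.74e-05). The laminin chains moved in opposite directions. CDH19, a cadherin of the neural crest, was at 630.1 and 568 with vehicle and 178 and 189.9 with trametinib, a change of -1.70 ± 0.11 (limma adjusted p = 2.28e-06). Without trametinib replicate 2 there were 8 falls. Fibroblast markers summed to between 403 and 417 with vehicle and 810 and 1095 with trametinib, and their part in these values was not tested. Potassium channels rose in 5 of 14 (35.7%) and fell in 2 (14.3%), beside 23.7% and 27.4% of all tested genes. With only the 4 libraries compared 4 rose. Changes in this list ran from -4.76 to 7.18, in both directions. The channel subunit KCNAB2 was at 1838 and 1963 with vehicle and 4377 and 4312 with trametinib, a rise of 1.19 ± 0.065 (limma adjusted p = 6.36e-07).

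Genes often taken as stable references moved as well. Of 15 tested, 8 fell (53.3%), 2 rose (13.3%) and 5 did not pass, with a median of -0.49. Of all tested genes, 27.4% fell and 23.7% rose. GAPDH was at 76299 and 71829 with vehicle and 32468 and 38224 with trametinib, a change of -1.07 ± 0.072 (limma adjusted p = 2.39e-06). ACTB was at 59087 and 53303 with vehicle and 38356 and 41334 with trametinib, a change of -0.50 ± 0.062 (limma adjusted p = 0.000138). TFRC, the transferrin receptor of growing cells, was at 3327 and 3263 with vehicle and 569.7 and 669 with trametinib, a change of -2.41 ± 0.10 (limma adjusted p = 1.21e-07). The 3 falls were seen in both libraries. B2M rose, at 3818 and 3243 with vehicle and 5099.9 and 5721 with trametinib. TBP was at 296 and 292 with vehicle and 254 and 394 with trametinib, with overlapping groups, and did not pass (adjusted p = 0.733). TMM scaling moved the median over all genes by -0.021 log2 units and library total scaling by -0.046.

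Outside the lists, and among genes above 0 in all 4 libraries, the largest rises by the smallest difference between any trametinib and any vehicle library were led by genes that were close to 0 in vehicle. UBD, a ubiquitin-like protein, was at 1.20 and 0.792 with vehicle and 130.4 and 203 with trametinib, a rise of 6.36 ± 0.93 (limma adjusted p = 0.000366). ADAMTS14, a collagen-processing protease, was at 3.61 and 2.38 with vehicle and 227 and 310.4 with trametinib. PCSK2, a prohormone convertase, was at 9.03 and 7.92 with vehicle and 383 and 376 with trametinib. In all 3 the vehicle libraries held under 10 normalised counts. TRPM8, the cold receptor, was at 0.602 and 0.792 with vehicle and 109 and 64.3 with trametinib. PRICKLE1, a planar polarity protein, was at 76.4 and 87.1 with vehicle and 2854 and 2588 with trametinib, a rise of 5.04 ± 0.18 (limma adjusted p = 5.09e-08). PDZD2 was at 30.1 and 26.1 with vehicle and 1030.0 and 1099 with trametinib, a rise of 5.20 ± 0.23 (limma adjusted p = 1.87e-07). The remaining 6 were ZNF536, SLC3A1, TMEM236, PRDM7, GSTA1 and C10orf10. GSTA1, a glutathione transferase, was at 9.63 and 11.1 with vehicle and 208 and 191 with trametinib. SLC3A1, a chain of a cystine carrier, was at 5.42 and 1.58 with vehicle and 163 and 153 with trametinib.

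Among genes outside the lists that were above 0 in all 4 libraries, the 12 largest falls by the same measure were led by HES1, a repressor that answers to Notch, at 167 and 162 with vehicle and 2.01 and 1.00 with trametinib, a change of -6.08 ± 0.41 (limma adjusted p = 2.49e-06). HMGA2, a chromatin protein of embryonic and tumour cells, was at 2082 and 2174 with vehicle and 52.2 and 60.3 with trametinib, a change of -5.22 ± 0.11 (limma adjusted p = 6.69e-09). MKI67, the proliferation marker, was at 2106 and 1906 with vehicle and 54.2 and 56.3 with trametinib. The trametinib libraries were close to each other for these 3 genes. PKMYT1, which holds back CDK1, was at 859 and 859.8 with vehicle and 13 and 22.1 with trametinib. MCM10, a replication initiation factor, was at 794 and 838 with vehicle and 30.1 and 21.1 with trametinib. PLK4, which duplicates centrioles, was at 357 and 361 with vehicle and 9.03 and 1.00 with trametinib. KIF20B, a motor of cell division, was at 961 and 896 with vehicle and 35.1 and 1.00 with trametinib. HIST1H3H, HIST1H2AK, HIST1H3B and HIST1H2BJ are replication-dependent histones with near-identical copies, so reads may have been split between them and single members are uncertain. HIST1H3B was at 3189 and 3424 with vehicle and 117 and 88.4 with trametinib. H2AFX, a histone variant that marks DNA breaks, was at 1316 and 1286 with vehicle and 27.1 and 57.3 with trametinib.

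At 0 in both trametinib libraries were 101 tested genes, of which 9 had a vehicle mean of at least 50, and 13 tested genes were at 0 in both vehicle libraries. After DUSP6 the highest were MYO3A, a myosin motor, at 165 and 154 in vehicle, and CNKSR2, a scaffold of RAS signalling, at 93.9 and 103. Set at the floor, they are 52.9-fold and 32.7-fold lower with trametinib. CDC25C, the phosphatase that frees CDK1, was at 75.8 and 103. GJB1, a connexin, was at 79.4 and 68.9. RGS16, a brake on G proteins, was at 69.8 and 74.4. STEAP3, an iron reductase, was at 56 and 52.3 in vehicle. The floor covers counting error only, so these folds are not strict lower bounds. Counting all 18406 gene symbols, 3743 had 0 reads in the first trametinib library and 5362 in the second.

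Measured in normalised counts, the largest rise was MALAT1, a nuclear long noncoding RNA, at 425478 and 429229 with vehicle and 710736 and 836989 with trametinib, or 4.19% and 4.23% of the summed values with vehicle and 6.85% and 7.91% with trametinib. SEMA6A, a membrane semaphorin, was at 17864 and 17486 with vehicle and 49786 and 53178 with trametinib. TIMP2, a protease inhibitor, was at 20071 and 20273 with vehicle and 54099.9 and 52917 with trametinib. The trametinib libraries of these genes lay clear of vehicle. BCAN, a matrix proteoglycan, was at 8067 and 8001 with vehicle and 29508 and 30290.4 with trametinib, a rise of 1.90 ± 0.048 (limma adjusted p = 1.38e-08). NAV2 was at 4386 and 4047 with vehicle and 24358 and 22687 with trametinib, a rise of 2.48 ± 0.06 (limma adjusted p = 1.08e-08). VIM, the filament vimentin, was at 22406 and 21666 with vehicle and 38723 and 37983 with trametinib. The largest falls beside GAPDH and ACTB included chaperone genes. HSP90AB1 was at 23819 and 22652 with vehicle and 8973 and 8793 with trametinib. HSP90AA1 was at 15603 and 15581 with vehicle and 4399 and 4026 with trametinib. HSPA8 was at 23617 and 22467 with vehicle and 9286 and 11384 with trametinib. Both cytosolic HSP90 genes fell. NCL, which encodes nucleolin, was at 12317 and 12235 with vehicle and 2633 and 2601 with trametinib, a change of -2.23 ± 0.068 (limma adjusted p = 2.58e-08). HMGA1, an architectural chromatin protein, was at 15174 and 14969 with vehicle and 4048 and 4651 with trametinib, a change of -1.80 ± 0.072 (limma adjusted p = 1.01e-07). NQO1, a quinone reductase, was at 16474 and 16406 with vehicle and 5338 and 5444 with trametinib, a change of -1.61 ± 0.047 (limma adjusted p = 2.36e-08). PABPC1, which binds poly(A) tails, was at 38932 and 39514 with vehicle and 27753 and 27592 with trametinib. GAPDH, ACTB and the HSP genes have processed copies in the genome that could share their reads.

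Other changed genes in which the trametinib libraries lay farthest apart were HIST1H2AI at 77.2 and 0. XRCC3 was at 70.2 and 0. MRPL1 was at 66.2 and 0. BRMS1L was at 60.2 and 0. HAGHL was at 57.2 and 0 in trametinib replicates 1 and 2. In each, as in POLQ, replicate 2 was at 0 and replicate 1 was not. Replicate 1 alone lay below both vehicle libraries in all 6, at 356 and 357 for XRCC3 and 111 and 134 for MRPL1. With only the 4 libraries compared, none of the 6 passed, with limma adjusted p from 0.0566 to 0.182. XRCC3, MRPL1, BRMS1L and HAGHL also lost their call when either vehicle library was left out, with adjusted p from 0.0586 to 0.165. By edgeR the changes of BRMS1L, HAGHL and MRPL1 were -2.08, -2.15 and -1.86, and they passed neither there (adjusted p = 0.082, 0.116 and 0.139) nor by DESeq2. By DESeq2 XRCC3 had -3.34 and did not pass (adjusted p = 0.0995). HAGHL was not called without trametinib replicate 2 either (0.0641).

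Trametinib given on top of panobinostat, read as the combination minus panobinostat, shares no library with the comparison above. Both contrasts use the spread of all 8 libraries in 1 fit. In fits of only the 4 libraries of each, 5343 genes passed here and 5136 for trametinib alone, so the counts do not rank the 2 responses. In the fit of all 8 libraries 3191 of 13320 genes passed here, 24.0%, of which 1451 rose (10.9% of those tested) and 1740 fell (13.1%). This count depends on which libraries enter, from 1686 when panobinostat replicate 1 is left out to 5747 when trametinib replicate 2 is left out. Of the 3153 genes that rose with trametinib alone, 2636 were also higher and 1109 also passed as higher on panobinostat, and 77 passed as lower. Of the 3644 that fell, 3057 were also lower, 1354 passed as lower and 59 as higher. The changes were smaller there, a median of 0.38 against 0.92 for the genes that rose and -0.41 against -1.10 for those that fell. These genes were chosen by the first comparison, so the medians are a description with no test.

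With panobinostat present the ERK feedback list had a median of -1.77 beside -2.53 without it, and the ERK-responsive factors had -0.56 beside -1.75. DUSP6 was at 627 and 583 under panobinostat alone and 3.51 and 4.56 under both drugs, a change of -6.92 beside -9.16 without panobinostat. SPRY4 was at 5265 and 5217 under panobinostat alone and 4.68 and 7.61 under both drugs, a change of -9.55 ± 0.44. MYC was at 5921 and 6139 under panobinostat alone and 44.5 and 89.8 under both drugs, a change of -6.55 ± 0.30. CCND1 was at 11074 and 10677 under panobinostat alone and 1191 and 1114 under both drugs, a change of -3.24 ± 0.10, beside -3.35 without panobinostat. Of the genes set side by side here, chosen after their values were seen, the difference between the changes did not pass for SPRY4, MYC or CCND1 (limma adjusted p = 0.363, 0.962 and 0.618). That test is not given here for DUSP6, DCT, TYR or BMF. The mitotic genes had a list median of -0.58 beside -3.47, and 4 of 16 fell. CDK1 was at 316 and 385 under panobinostat alone and 209.6 and 208 under both drugs, a change of -0.74 ± 0.20, and the changes differed (adjusted p = 8.70e-05 by limma). The melanin list had a median of -0.19 there, with 5 up and 4 down. DCT was at 5.10 and 10.1 under panobinostat alone and 258 and 236 under both drugs, a rise of 4.91 ± 0.48 (adjusted p = 9.03e-05 by limma), and TYR at 1745 and 1789 under panobinostat alone and 1589 and 1413 under both drugs, a change of -0.24 ± 0.081 that did not pass (adjusted p = 0.0627). FOXO-linked genes had a median of 0.88 beside 1.14, with BMF, of the apoptosis list, at 548 and 614 under panobinostat alone and 3491 and 3202 under both drugs, a rise of 2.52 ± 0.10.

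**Figure D4:**
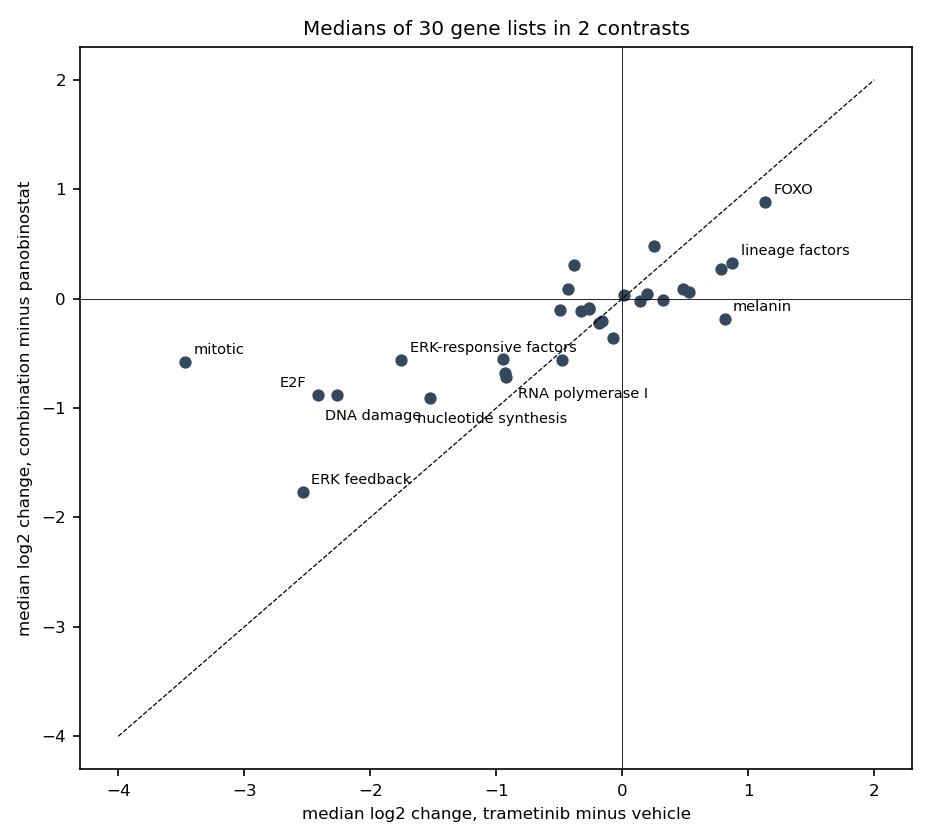
Median log2 change of each of 30 gene lists in trametinib minus vehicle (horizontal) and in combination minus panobinostat (vertical), with the dashed line marking equal medians. The mitotic list lies farthest above the line, at -3.47 and -0.58, the FOXO list is at 1.14 and 0.88, and the melanin list is at 0.81 and -0.19.

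**Figure D5:**
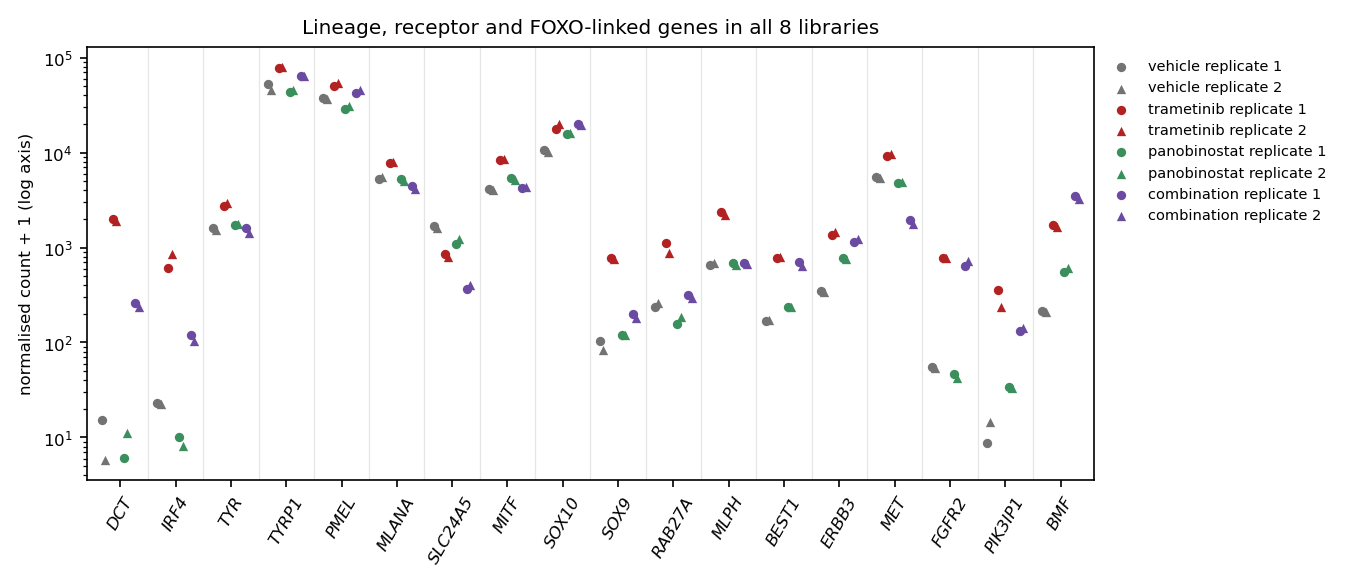
Normalised count + 1 on a log axis for 18 lineage, receptor and FOXO-linked genes, with 1 point per library of all 8, coloured by group, circles for replicate 1 and triangles for replicate 2. DCT, IRF4, FGFR2 and BMF are higher with trametinib than without it in both pairs of groups, while MET and MITF are higher with trametinib alone and lower in the combination than with panobinostat.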

How the data were processed

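Per the labels' protocols, total RNA of each sample went into libraries, built with an Ovation FFPE kit from NuGEN. TopHat2 (version 2.0.13), Cufflinks (2.2.1) and DESeq2 (no version) are named in the submitters' processing notes, and hs37d5 is the build named there for vehicle and trametinib. Whether reads were counted by strand, and the annotation, are not given in the sources used here, so antisense and overlapping genes cannot be told apart. The authors deposited 1 normalised signal value per gene symbol and library for 18406 symbols, 458 of them at 0 in all libraries. The values were whole multiples of a step in each library, and 100% came out as whole reads at a relative tolerance of 1e-06.

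All 8 libraries in 4 groups entered 1 fit of limma 3.58.1 (R 4.3.3) with an intensity trend on log2(value + 1), with 4 residual and 5.32 prior degrees of freedom, over 13320 genes with a mean of at least 10. Log2 changes are on the log2(value + 1) scale, and ± is the SE. This scale understates changes of low genes, but it can overstate them where only 1 trametinib library was at 0. BRMS1L, for example, changed by -4.05 on it and by -2.08 by edgeR. Adjusted p-values are Benjamini-Hochberg over all 13320. Exact permutation of 4 libraries gives p = 0.333 at the lowest, so it was not used. On the recovered reads, edgeR 4.0.16 (quasi-likelihood) called 6783 genes and DESeq2 1.42.0 called 7389. Folds against a group at 0 use a floor of 3 reads per library. Deviations from group means of equally numbered replicates correlated between -0.024 and 0.022, so the numbers did not pair the libraries. The scripts were tested on simulated data.

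The members, the 30 lists (547 tested entries) and the markers were chosen with earlier results of these data known. Genes are named by rule: the first 6 of each list, up to 4 more per list and direction by adjusted p, 12 rises and 12 falls by smallest library difference, 8 genes at 0 with trametinib, 10 rises and 10 falls in value, and 6 with trametinib libraries farthest apart. The test of the difference between trametinib's changes without and with panobinostat was added after the values were seen. Some items are not reported here. Promoter windows are from RefSeq, GRCh38.p14.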

Additional observations from a re-analysis of the deposited data

Results flagged for a closer look

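Of the genes named above, some changed in opposite directions with trametinib alone and with trametinib added to panobinostat, with both changes past the threshold, and the difference between the changes passed too (limma). Over all tested genes 136 did so, and 2565 passed the test of the difference in all. The values here are the change with trametinib alone minus the change on panobinostat, in log2 units. MET, the growth factor receptor, had 2.15, from a rise of 0.78 ± 0.062 alone and a change of -1.37 ± 0.062 on panobinostat, at 4737 and 4893 under panobinostat alone and 1942 and 1783 under both drugs. SNAI2 had 1.78, PRKCB 1.69, LGALS3 1.65, NBR1 1.59, SLC45A2 1.43 and KCNAB2 1.43. MITF had 1.34, with 5343 and 5099 under panobinostat alone and 4184 and 4336 under both drugs, FOXO1 1.26, RAB38 1.12 and MLANA 0.808. Those rose with trametinib alone and fell on panobinostat, and CDKN1A, at -0.908, did the reverse, with 3579 and 3611 under panobinostat alone and 5237 and 5223 under both drugs.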

How the results depend on the processing

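The count of genes past the threshold for trametinib against vehicle stayed within 1.5 times 6797 in all settings but 1: 3433 genes passed with a log2 change of at least 1 in size. Leaving out 1 library gave 4659 to 8946, the 4 compared libraries alone 5136, and a replicate block, for numbers that did not pair the libraries, 6673. For trametinib added to panobinostat the count of 3191 became 5343 with only those 4 libraries, 1830 at an adjusted p under 0.01, 956 with a log2 change of at least 1 in size, 1686 to 5747 with 1 library left out and 3027 with the replicate block. No named gene reversed. Low counts limit the comparison, since trametinib replicate 2 held 0 for many low genes.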
